A study of Mus musculus with 9 samples.

Results

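The genes described are Id1, Id2, Id3 and Id4, the 4 members of the mouse Id (inhibitor of DNA binding) family, chosen by gene symbol among the 47729 genes of the expression table. They were followed in mouse embryonic stem cells (ESCs) in which a forced E2A homodimer was switched on. The cells carried a doxycycline (dox)-inducible transgene of FLAG-tagged mouse E47, an E2A splice product, tethered by a flexible linker to another E47. All groups carried this transgene and were kept in LIF/serum, a medium that holds ESCs in self-renewal. RNA was sequenced from untreated cells (0 h) and from cells given 1 µg/ml dox for 18 h or 24 h. Each time point has 3 biological replicates, 9 libraries in all. A line that lacks the transgene and was given dox was not analysed here, so dox and the transgene cannot be told apart. Libraries of untreated cells kept for 18 h or 24 h were not analysed either. Hours in culture therefore cannot be told apart from dox. The treatment text in the labels speaks of other hours, and the times in the titles and treatment entries were used.

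Id proteins are helix-loop-helix (HLH) proteins without the basic region that other members of the superfamily use to touch DNA. They pair with E proteins, the E2A, HEB and E2-2 products of Tcf3, Tcf12 and Tcf4, and the pair cannot bind the E-box sites of target genes. In ESCs the Id genes are classical targets of BMP signalling through SMAD proteins, and Id1 is known for holding back neural differentiation. Whether the amount of Id transcript moves when E2A homodimers are supplied bears on the balance between the E proteins and their inhibitors.

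All 4 members are protein-coding genes, located here with the GENCODE M21 annotation of GRCm38. Id1 (ENSMUSG00000042745) is on the plus strand of chromosome 2, from 152736251 to 152737410. Id2 (ENSMUSG00000020644) is on the minus strand of chromosome 12, from 25093799 to 25097140. Id3 (ENSMUSG00000007872) is on the plus strand of chromosome 4, from 136143497 to 136145755, and Id4 (ENSMUSG00000021379) on that of chromosome 13, from 48261228 to 48266026. The genes are therefore on 4 different chromosomes. Id4 overlaps 2 genes annotated on the other strand, of which A330033J07Rik had a mean of 0.00708 FPKM and Gm49291 was not in the table.

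The HLH region is what the 4 members share. The stretches below are the 120 coding bases, in frame, over which the 4 coding sequences were most alike, read from the GENCODE M21 transcripts 5′ to 3′. They are shown because reads from so alike a stretch could be counted on the wrong member. Capitals mark the 69 positions (57.5%) that were identical in all 4 members. The stretch spans coding bases 178 to 297 of Id1, 109 to 228 of Id2, 124 to 243 of Id3 and 196 to 315 of Id4, counted from the first base of the start codon.
Id1: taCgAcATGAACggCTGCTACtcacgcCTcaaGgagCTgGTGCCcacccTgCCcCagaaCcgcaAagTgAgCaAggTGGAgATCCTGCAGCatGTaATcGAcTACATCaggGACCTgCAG
Id2: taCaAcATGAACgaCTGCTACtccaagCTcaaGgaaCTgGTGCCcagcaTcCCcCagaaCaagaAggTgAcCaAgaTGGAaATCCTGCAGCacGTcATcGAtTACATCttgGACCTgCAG
Id3: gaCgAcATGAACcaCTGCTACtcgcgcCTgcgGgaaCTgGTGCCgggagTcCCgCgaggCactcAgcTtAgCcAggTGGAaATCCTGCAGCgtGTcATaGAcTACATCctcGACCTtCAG
Id4: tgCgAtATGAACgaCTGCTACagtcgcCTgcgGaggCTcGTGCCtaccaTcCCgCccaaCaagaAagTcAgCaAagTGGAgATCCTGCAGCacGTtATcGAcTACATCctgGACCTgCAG

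Id1 and Id2 were the most alike pair over this stretch, with 98 of 120 bases identical (81.7%). The pairs Id1 with Id3 and Id3 with Id4 were the least alike, with 85 identical bases each (70.8%). The longest exact run that transcripts of any 2 members had in common was 19 bases, between Id2 and Id3, and the shortest such maximum was 11 bases, between Id1 and Id2. How reads with several alignments were counted is not given in the sources used here. The coding sequence without its stop codon was 444 bases in Id1, 402 in Id2, 357 in Id3 and 483 in Id4 in the transcripts shown.

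Promoter windows from RefSeq (GRCm38.p6, 250 bases before to 50 after the annotated start) matched 3 of the 4 members, Id2, Id3 and Id4. The E-box CANNTG, the site E proteins bind, was searched on both strands, which read the same for this motif, and E-boxes were found in the window of 1 of the 3. It was a CAGCTG in Id2 that begins 196 bases before the start. CANNTG was present in 72.3% of the 32851 RefSeq promoters of this length and CAGCTG in 16.3% of them. CAGGTG, searched on either strand, was not found in the 3 windows and was present in 20.2% of all promoters. CACGTG was not found either, and was present in 7.15%. The GC-rich SMAD motif GGCGCC, which reads the same on both strands, was found 1 time in Id2 and 1 time in Id4, and was present in 11.9% of all promoters. The shorter SMAD motif CAGAC, searched on either strand, was found 2 times in Id3 and was present in 49.6%. The window of Id3 lies wholly within an exon of a GENCODE transcript that starts further upstream, and is not printed. The window of Id2 also lies inside the annotated span of its gene, with 211 of its 300 bases in GENCODE exons. For Id2 the 89 bases that no GENCODE exon of the gene covers are shown, and for Id4 the 250 bases before the RefSeq start, because these hold the E-box and the GGCGCC matches, in capitals. The stretch of Id2 is chr12:25096254-25096342 on the minus strand and that of Id4 is chr13:48260866-48261115 on the plus strand.
Id2: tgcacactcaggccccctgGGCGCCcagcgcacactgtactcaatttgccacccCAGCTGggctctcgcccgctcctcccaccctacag
Id4: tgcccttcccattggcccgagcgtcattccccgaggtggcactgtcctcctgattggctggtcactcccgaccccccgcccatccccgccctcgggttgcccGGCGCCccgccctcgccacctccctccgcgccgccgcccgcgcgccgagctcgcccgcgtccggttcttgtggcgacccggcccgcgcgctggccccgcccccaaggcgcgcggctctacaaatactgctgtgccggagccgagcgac

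Expression is given as FPKM, fragments scaled to gene length and to the number mapped in the library. Levels of genes of different length can be compared on this scale only as far as the length assumed for each gene holds. Reads on genes numbered 22028363 to 26471569 per library. Tcf3, whose reads can include those of the mouse E47 transgene, rose from a mean±s.d. of 39.1±1.80 FPKM in the 3 untreated libraries to 110.1±5.52 after 18 h of dox and 102±7.55 after 24 h. The 7 ESC markers listed (Pou5f1, Sox2, Nanog, Klf4, Zfp42, Esrrb and Tfcp2l1) were all present, their summed FPKM was 554 to 769 per library at 0 h and 473 to 652 after dox, and 0 of them were called by limma, edgeR or DESeq2 in the comparisons with 0 h described next. At an unadjusted p under 0.05 by limma, 1 was higher and 2 lower at 18 h, and 1 was higher and 1 lower at 24 h. Nanog had mean FPKM of 40.6 untreated and 73.4 at 24 h (adjusted p = 0.00735 by limma). Pou5f1, the most abundant of the 7, went from 371 to 248 FPKM (adjusted p = 0.022), and both genes stayed below the minimum fold-change. With the replicate number added to the limma fit, Klf4 was higher at 18 h and 24 h (adjusted p = 0.0118 and 0.0101). Tfcp2l1 was lower in that fit (adjusted p = 0.00544 and 0.00864), and both were also below the minimum.

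All 4 Id genes were higher after 18 h of dox than at 0 h and stayed at that higher level at 24 h. Id3 rose from the third place among the 4 to the first, with a mean that was 17.4 times as high at 18 h as at 0 h. Id1, Id2 and Id4 had means that were 5.91, 3.53 and 4.41 times as high. Changes were tested with limma on log2(FPKM+0.1) over the 17951 genes whose mean FPKM reached 0.1, and a gene was called if its adjusted p (Benjamini–Hochberg) did not exceed 0.05 and its log2 fold-change reached 1 in either direction. All 4 members passed this filter. At 18 h compared with 0 h, 1.33% of all genes tested were called up and 0.724% were called down, and all 4 Id genes were among those called up. At 24 h compared with 0 h, 2.07% were called up and 0.836% were called down, and all 4 Id genes were again called up. At an unadjusted p under 0.05, the threshold used for some lists below, 13.2% of all genes tested were higher and 12.3% lower at 18 h, and 15% were higher and 13.2% lower at 24 h. Both comparisons used the same 0 h libraries. The libraries are bulk samples, in which more cells with a transcript and more transcript per cell cannot be told apart.

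**Figure D1:**
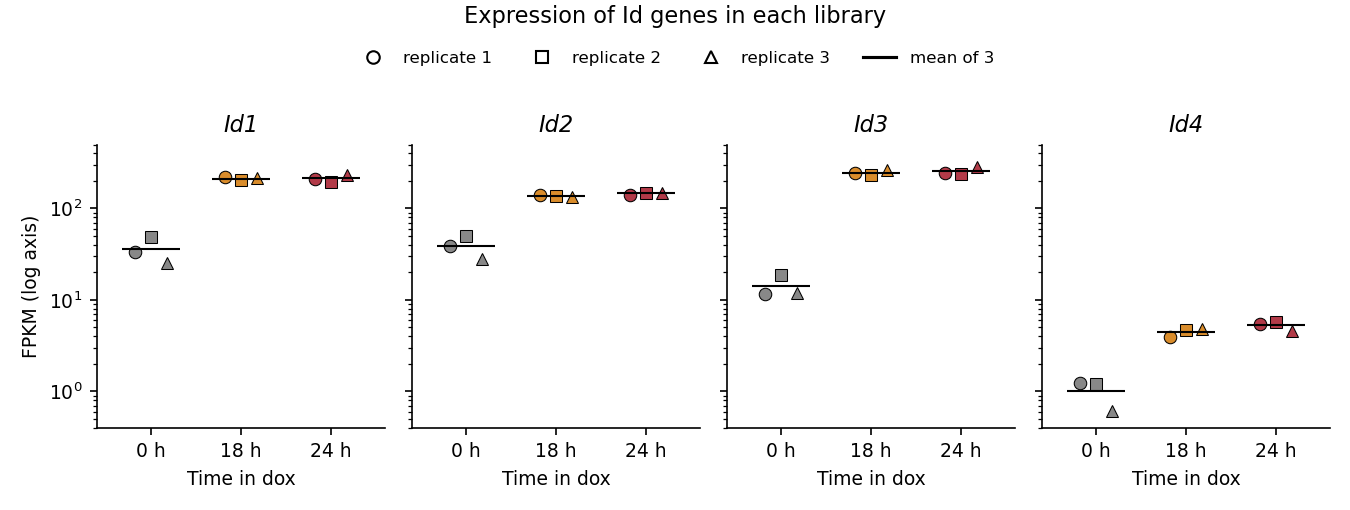
FPKM of Id1, Id2, Id3 and Id4 in each of the 9 libraries on a log axis against time in dox, with symbols for replicate numbers and lines for the mean of 3. For every member the 6 dox libraries lie above the 3 libraries at 0 h, and the 0 h points are the most spread.

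Id3 encodes the smallest of the 4 proteins, by the length of the coding sequences given above. Replicates 1, 2 and 3 had 11.6, 18.8 and 11.9 FPKM untreated. At 18 h they had 243, 230.3 and 265 FPKM, and the 24 h replicates had 247, 240.8 and 284 FPKM. The dox libraries were all far above those at 0 h, and the 18 h and 24 h libraries overlapped. Limma gave a log2 fold-change of 4.15±0.165 (s.e.) at 18 h, with an adjusted p of 1.47e-05, and of 4.21±0.165 (s.e.) at 24 h, with an adjusted p of 8.82e-06. Id3 ranked 2 among the 17951 genes by log2 fold-change in both comparisons, and 1 by p value. By mean FPKM it moved from rank 4147 of all genes at 0 h to rank 172 at 18 h and rank 152 at 24 h. Reads on Id3 numbered 464 to 808 per library at 0 h, 9944 to 11464 at 18 h and 11005 to 13850 at 24 h, so counting error was small beside the spread between replicates.

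Id1 is the member best studied in ESCs as a BMP-induced inhibitor of E2A. Replicates 1, 2 and 3 had 33.5, 48.8 and 25.2 FPKM untreated. At 18 h they had 219, 202 and 215 FPKM, and the 24 h replicates had 211, 195 and 233 FPKM. The lowest dox library, at 195 FPKM, was well above the highest library at 0 h, at 48.8 FPKM, and the 2 dox times overlapped. Limma gave a log2 fold-change of 2.61±0.193 (s.e.) at 18 h, with an adjusted p of 0.000204, and of 2.62±0.193 (s.e.) at 24 h, with an adjusted p of 0.000159. Id1 ranked 28 by log2 fold-change at 18 h and 32 at 24 h.

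Id2 was the most abundant member on average at 0 h, although its libraries overlapped those of Id1. Replicates 1, 2 and 3 had 38.9, 49.4 and 27.8 FPKM untreated. At 18 h they had 139.7, 138 and 132 FPKM, and the 24 h replicates had 140.01, 149 and 149 FPKM. Every dox library lay above every 0 h library, and the 24 h libraries lay above the 18 h libraries by a narrow gap, which was the case for 6.81% of all genes tested. Limma gave a log2 fold-change of 1.86±0.165 (s.e.) at 18 h, with an adjusted p of 0.000649, and of 1.95±0.165 (s.e.) at 24 h, with an adjusted p of 0.000343. By log2 fold-change Id2 ranked 98 at 18 h and 100 at 24 h.

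Id4 was the least abundant member throughout. Replicates 1, 2 and 3 had 1.24, 1.20 and 0.61 FPKM untreated. At 18 h they had 3.95, 4.69 and 4.81 FPKM, and the 24 h replicates had 5.43, 5.81 and 4.58 FPKM. The lowest dox library was above the highest 0 h library, and the 18 h and 24 h libraries overlapped. Limma gave a log2 fold-change of 2.09±0.229 (s.e.) at 18 h, with an adjusted p of 0.00171, and of 2.32±0.229 (s.e.) at 24 h, with an adjusted p of 0.000793. On the log2(FPKM+0.1) scale the rise of a gene as low as Id4 at 0 h is understated. Reads on Id4 numbered 22 to 49 per library at 0 h, 150 to 194 at 18 h and 207 to 246 at 24 h, so its 0 h level is the least precisely counted of the family.

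For each of the 4 members all 18 h libraries lay above all 0 h libraries, as was the case for 14.4% of the genes tested, and all 24 h libraries did so too, as for 16.7%. The replicate number was used to set each dox library beside the 0 h library of the same number. For Id3 the FPKM ratio of 18 h to 0 h was 20.9, 12.3 and 22.2 in replicates 1, 2 and 3. For Id1 it was 6.54, 4.14 and 8.51, for Id2 it was 3.59, 2.79 and 4.75, and for Id4 it was 3.19, 3.89 and 7.88. The ratio was highest in replicate 3 for every member, and lowest in replicate 2 for every member but Id4.

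The Id genes varied widely between the untreated replicates. The coefficient of variation at 0 h was 33.4% for Id1, 27.9% for Id2, 28.8% for Id3 and 34.7% for Id4, beside a median of 9.50% over the 11893 genes whose mean FPKM reached 1. Between 92.3% and 95.8% of those genes had a lower coefficient than the member. Replicate 2 at 0 h was the highest library for Id1, Id2 and Id3, and replicate 3 was the lowest for Id1, Id2 and Id4. For Id3 and Id4 the coefficient rests on 1 library each: it was 1.83% for Id3 without replicate 2 and 1.9% for Id4 without replicate 3, a check added after the data were seen. Leaving out any 1 library moved it to between 19.9% and 45.1% for Id1 and between 16.9% and 39.6% for Id2. After dox the coefficient was 2.96% to 10.3% at 18 h and 3.47% to 11.9% at 24 h, beside medians of 7.48% and 7.65% over all these genes, and with 1 library left out it ran from 0.836% to 13.8% and from 0.101% to 16.7%. With 3 libraries per time point the change in spread was not tested.

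**Figure D2:**
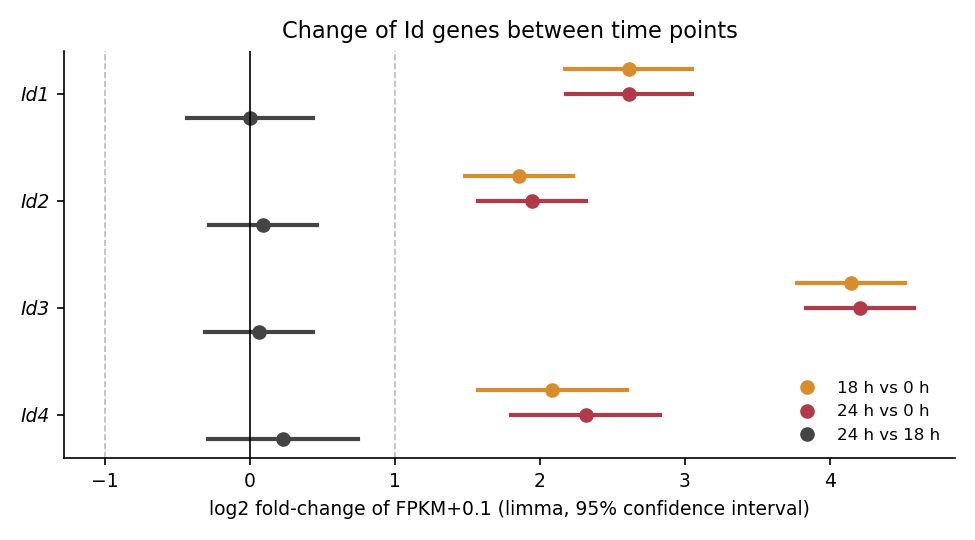
The log2 fold-change of FPKM+0.1 with its 95% confidence interval from limma for each Id gene, for 18 h vs 0 h, 24 h vs 0 h and 24 h vs 18 h, with dashed lines at -1 and 1. Both comparisons with 0 h lie above 1 for every member, and all intervals for 24 h vs 18 h include 0.

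Between 18 h and 24 h no Id gene passed the test in limma, edgeR or DESeq2, and 0 of the 4 had an unadjusted p under 0.05 in any of these. In this comparison 0.0167% of all genes were called up and 0.00557% were called down. The log2 fold-change of 24 h over 18 h was 0.00 for Id1 (95% confidence interval -0.43 to 0.44, adjusted p = 1 by limma) and 0.09 for Id2 (-0.28 to 0.47, adjusted p = 0.989). It was 0.06 for Id3 (-0.31 to 0.44, adjusted p = 0.997) and 0.23 for Id4 (-0.29 to 0.74, adjusted p = 0.970). The intervals exclude a change of 1 on the log2 scale in either direction for each member, and changes inside the intervals cannot be told from 0 with these libraries. Their width includes the spread at 0 h, since the 9 libraries share 1 estimate of it. With only 18 h and 24 h in the fit the intervals were -0.18 to 0.19 for Id1, -0.02 to 0.21 for Id2, -0.14 to 0.27 for Id3 and -0.06 to 0.51 for Id4. Leaving out 0 h replicate 2 gave -0.25 to 0.25, -0.16 to 0.35 and -0.12 to 0.24 for Id1, Id2 and Id3, and leaving out 0 h replicate 3 gave -0.30 to 0.31, -0.10 to 0.29 and -0.05 to 0.50 for Id1, Id2 and Id4. In pairs of the same number, 24 h FPKM over 18 h FPKM was 1.002, 1.08 and 1.13 for Id2. For Id3 it was 1.02, 1.05 and 1.07, and for Id1 and Id4 it lay on both sides of 1. With the replicate block the intervals also included 0, at -0.47 to 0.48 for Id1 and -0.25 to 0.44 for Id2. For Id3 and Id4 they were -0.34 to 0.46 and -0.25 to 0.70. The sign for Id1 flipped to -0.04 with median centring, to -0.00017 in edgeR and to -0.0034 in DESeq2.

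Summed over the family, Id transcript went from 89.7±26.6 FPKM without dox to 599±21.2 by 18 h and 621±42.6 by 24 h. The untreated libraries held 65.6 to 118 FPKM of Id transcript, those at 18 h held 575 to 616 and those at 24 h held 590.5 to 669.8. Of the FPKM gained on average between 0 h and 18 h, Id3 made up 45.5%, Id1 34.6%, Id2 19.2% and Id4 0.68%.

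The make-up of the family changed with the level. Id3 was 15.9±2.27% of the summed Id FPKM without dox, 41.0±1.66% at 18 h and 41.4±0.903% at 24 h. Id2 was 43.3±2.06%, 22.8±1.30% and 23.5±1.54% at these times. Neither member's dox libraries overlapped its 0 h libraries on this measure. The share of Id1 was 39.7±1.45% at 0 h, 35.4±0.691% at 18 h and 34.3±1.07% at 24 h, a smaller shift in which the groups did not overlap with 0 h either. Id4 was 1.13±0.280%, 0.749±0.0855% and 0.856±0.155%, and its 24 h libraries overlapped those at 0 h. In recovered reads scaled to depth but not to gene length, the share of Id3 was 21.7±2.91%, 50.7±1.72% and 51.0±0.987%, so the sizes depend on the length scaling. On that scale the dox libraries of Id1, Id2 and Id3 again did not overlap those at 0 h, and those of Id4 did not either.

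**Figure D3:**
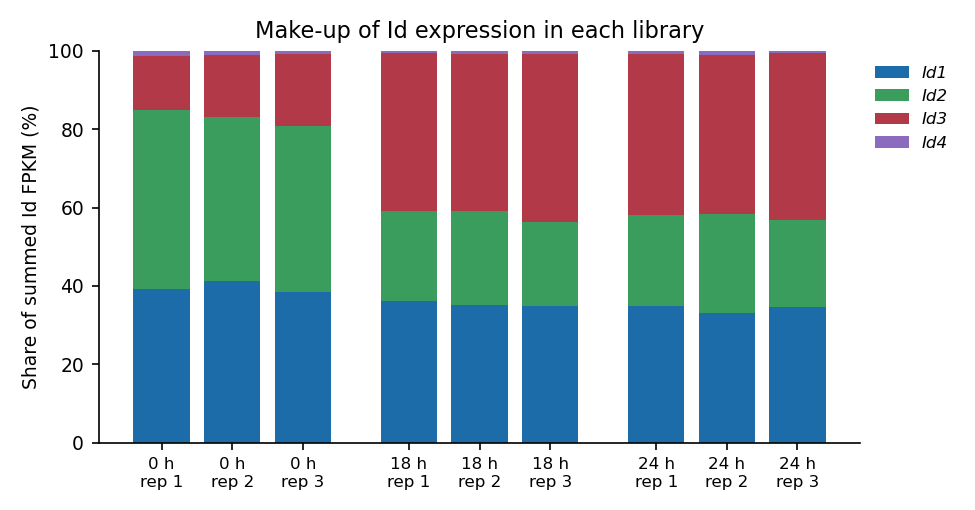
Share of the summed Id FPKM (%) taken by each member in each library, stacked, with libraries grouped by time in dox. The band of Id3 widens from 13.6% to 18.2% at 0 h to 40.0% to 42.9% in the dox libraries, and the band of Id2 narrows from 41.8% to 45.6% to 21.4% to 25.2%.

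The order of levels changed accordingly. At 0 h Id2 and Id1 overlapped, Id3 was below both in all libraries and Id4 was the lowest. The ratio of Id3 to Id1 FPKM was 0.347, 0.385 and 0.473 in replicates 1, 2 and 3 at 0 h. The 18 h libraries had ratios of 1.11, 1.14 and 1.23 and the 24 h libraries 1.17, 1.23 and 1.22, so Id3 exceeded Id1 in all 6 dox libraries and in none at 0 h. In depth-scaled reads this ratio was larger, at 0.620±0.0994, 1.79±0.0994 and 1.87±0.0544 in time order, and Id3 again exceeded Id1 in the 6 dox libraries and in none at 0 h. The ratio of Id2 to Id1 was 1.01 to 1.16 at 0 h, 0.615 to 0.683 at 18 h and 0.639 to 0.764 at 24 h, again without overlap. With 3 libraries against 3 the smallest p that an exact permutation test of such a ratio can reach is 0.1, and none was run.

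Id proteins act by taking up E proteins, so the levels of the 3 E protein genes were set beside them. Tcf3 was called up at 18 h (log2 fold-change 1.49, adjusted p = 2.37e-05 by limma) and at 24 h (1.38, adjusted p = 3.11e-05). Tcf4, which encodes E2-2, had 1.64±0.173 FPKM untreated, then 2.05±0.224 and 2.22±0.0913, with log2 fold-changes of 0.31 and 0.42 (adjusted p = 0.152 and 0.0553 by limma). Tcf12, which encodes HEB, had 3.20±0.330, 4.37±0.472 and 4.86±0.516 FPKM, with log2 fold-changes of 0.44 and 0.59 (adjusted p = 0.0581 and 0.0175 by limma). With the replicate block the adjusted p was 0.0456 and 0.0142 for Tcf4 and 0.00748 and 0.0022 for Tcf12. All 3 genes were higher at an unadjusted p under 0.05 at each time, and neither Tcf4 nor Tcf12 reached the minimum fold-change. The median over the 3 genes was 0.44 at 18 h and 0.59 at 24 h, beside -0.003 and 0.004 over all genes tested.

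The summed Id FPKM was 2.04±0.643 times the summed FPKM of the 3 E protein genes at 0 h, 5.15±0.257 times at 18 h and 5.70±0.206 times at 24 h. Per library this ratio was 1.87, 2.76 and 1.51 in replicates 1, 2 and 3 at 0 h. The 18 h libraries had 4.96, 5.04 and 5.44 and the 24 h libraries 5.46, 5.82 and 5.81. The dox libraries were all above those at 0 h, and in FPKM those at 24 h were above those at 18 h by a narrow gap (5.46 against 5.44). The transgene's own reads, as far as they fall on Tcf3, stand in the denominator. Against Tcf4 and Tcf12 alone, the ratio was 18.5±4.94 at 0 h, 94.1±12.3 at 18 h and 88.3±10.8 at 24 h. In reads scaled to depth but not to gene length it was 1.24±0.307, 7.05±0.912 and 6.65±0.772. These are ratios of transcript levels, and protein was not measured in these data. In recovered reads scaled to depth but not divided by gene length, the ratio of Id genes to E protein genes was 0.465, 1.53 and 1.64, so its size depends on the length scaling while the order of 0 h and dox does not. On that scale the 18 h libraries (1.46 to 1.61) and the 24 h libraries (1.60 to 1.71) overlapped. Set beside the 18 h library of the same number, the 24 h ratio was higher in replicates 1, 2 and 3 on both scales. In depth-scaled reads it went from 1.51 to 1.60, from 1.46 to 1.63 and from 1.61 to 1.71. This difference was not tested.

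**Figure D4:**
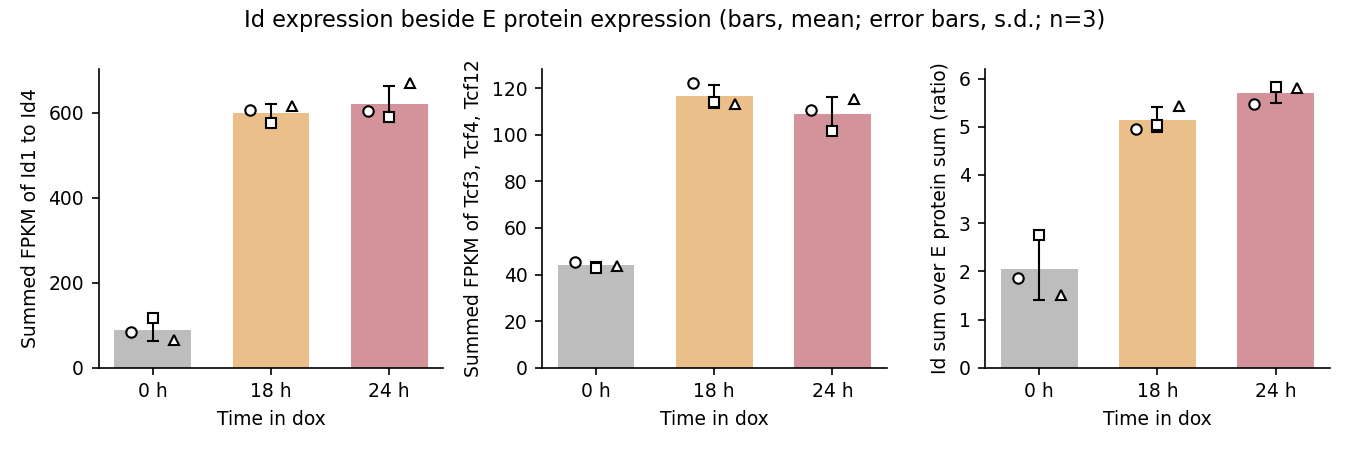
Summed FPKM of Id1 to Id4, summed FPKM of Tcf3, Tcf4 and Tcf12, and the ratio of the first sum to the second, against time in dox. Bars are means, error bars s.d. and symbols the 3 libraries, and all dox libraries lie above all 0 h libraries in each panel.

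The Id genes are targets of BMP signalling, so genes of that pathway were read from the same fit. Of 18 genes for BMP ligands, receptors and SMADs, 16 passed the filter, and 1 was called up and 0 down at both times, also by edgeR and DESeq2. At an unadjusted p under 0.05 by limma, 2 of the 16 were higher at 18 h and 4 at 24 h, and 0 were lower. That gene was Bmp7, a BMP ligand, with 1.16±0.225 FPKM untreated, then 12.0±2.48 and 14.1±3.28 (log2 fold-change 3.26 and 3.49, adjusted p = 0.000104 and 5.83e-05 by limma). Bmp4, the ligand used most often to hold ESCs in self-renewal, had 2.95±0.0473 FPKM at 0 h and 2.16±0.256 at 18 h (log2 fold-change -0.44, adjusted p = 0.224). Smad5, a BMP-responsive SMAD, had log2 fold-changes of 0.54 and 0.62 (adjusted p = 0.0132 and 0.00594), below the minimum fold-change. The median log2 fold-change of the 16 genes was 0.08 at 18 h and 0.11 at 24 h. Transcript levels do not measure the activity of the receptors or SMADs.

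Besides the Id genes, 7 other BMP target and feedback genes were listed and all were tested. At 18 h 1 of them was called up, and at 24 h 2 were, with 0 called down. Of the 7, 4 were higher and 0 lower at an unadjusted p under 0.05 at each time, Atoh8 among them. Atoh8, a bHLH factor, was listed at 0.0462±0.0425 FPKM at 0 h and had log2 fold-changes of 2.05 and 2.23 (adjusted p = 0.00443 and 0.00223 by limma). Msx2, a homeobox repressor, was called by limma at 24 h only (1.23, adjusted p = 0.0116), with 0.96 at 18 h (adjusted p = 0.0363), while edgeR and DESeq2 called it at both times. Its difference between 24 h and 18 h did not pass the test (adjusted p = 0.970). With the replicate block Msx1, a related homeobox gene, was also called, with log2 fold-changes of 1.04 and 1.07 (adjusted p = 0.0209 and 0.0158 with the block, 0.102 and 0.0794 without it), and DESeq2 called it at both times. The inhibitory Smad6 and Smad7, the decoy receptor Bambi and the antagonist Nog were not called. Atoh8 had a 0 h mean below 0.1 FPKM and passed the filter only through its dox libraries, so its direction follows from the filter. Without it the median of the other 6 genes was 0.36 at 18 h and 0.47 at 24 h.

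Class II bHLH factors, the tissue-restricted partners of E proteins, form dimers that Id proteins interrupt. Of 39 listed, 19 passed the filter. At 18 h 3 were called up and at 24 h 6 were, with 0 called down. Of these 19 genes, 6 (Atoh1, Atoh8, Neurod4, Neurog1, Nhlh1 and Olig3) had a 0 h mean below 0.1 FPKM and passed the filter only through their dox libraries, so their direction follows from the filter. They include 1 of the 3 genes called at 18 h and 3 of the 6 called at 24 h. Without them, 2 of 13 genes were called up at 18 h and 3 at 24 h, and the median log2 fold-change was 0.24 and 0.35. At an unadjusted p under 0.05, 6 of the 19 were higher and 1 lower at 18 h, and 8 were higher and 1 lower at 24 h, with these 6 genes included. Called at both times were Atoh8, the proneural gene Neurog3 (2.15 and 2.78, adjusted p = 0.00271 and 0.000605 by limma) and Hand1, a mesodermal and trophoblast factor (2.85 and 3.19, adjusted p = 0.000195 and 9.32e-05). Called by limma at 24 h only were Neurod4 (2.75, adjusted p = 0.0083), Tal2 (1.61, adjusted p = 0.0316) and Nhlh1 (1.18, adjusted p = 0.0378). None of these 3 passed the test between 24 h and 18 h (adjusted p = 0.857, 0.970 and 0.857), and edgeR and DESeq2 called Neurod4 and Tal2 at 18 h as well. The most abundant of the called genes was Hand1, at 11.6±0.764 FPKM at 24 h, beside 257±23.4 FPKM of Id3 and 5.27±0.629 FPKM of Id4 in the same libraries.

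The Hes, Hey and Bhlhe list holds other HLH proteins, of which many, but not all, oppose bHLH activators. Of 11 listed, 10 passed the filter, 2 were called up at 18 h and 1 at 24 h, and 0 were called down, with 3 higher and 2 lower at an unadjusted p under 0.05 at each time. Hes6 had log2 fold-changes of 1.39 and 1.39 (adjusted p = 0.00331 and 0.00246 by limma), and Hey2 had 1.33 at 18 h (adjusted p = 0.0239) and 0.94 at 24 h (adjusted p = 0.0622), where edgeR and DESeq2 called it. Hes1 had log2 fold-changes of 0.58 and 0.85 (adjusted p = 0.00679 and 0.00104 by limma), below the minimum. The medians over the list were 0.12 and 0.02. In none of these 4 pathway lists, nor among the E proteins, did a gene have a log2 fold-change of FPKM+0.1 as large as that of Id3. Bmp7 and Hand1 had larger ones than Id1, Id2 and Id4 at both times. Neurog3 had larger ones than Id2 and Id4, and Atoh8 than Id2. At 24 h Neurog3 exceeded Id1 as well, and Neurod4 exceeded Id1, Id2 and Id4. The added 0.1 lowers the fold-change of genes that are low at 0 h, such as Neurod4 (mean 0.0483 FPKM at 0 h and 1.02 at 24 h).

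Of 3 further genes, Tcf15 and Dnajc2, which the study's text connects with Id1 in ESCs, and Cdh1, which it places downstream of BMP with no known tie to Id1, 0 were called by limma, edgeR or DESeq2 at either time. At an unadjusted p under 0.05 by limma, 1 was higher and 1 lower at 18 h and 2 were lower at 24 h. Per the paper, Tcf15 is a bHLH factor that appears to prime cells for differentiation. It had 28.3±1.71 FPKM untreated, then 16.0±3.58 and 15.8±2.74. Its log2 fold-changes of -0.84 and -0.86 (adjusted p = 0.0193 and 0.0146 by limma) did not reach the minimum. Cdh1, which encodes E-cadherin, had log2 fold-changes of 0.16 and 0.07 (adjusted p = 0.171 and 0.506), and Dnajc2 had -0.16 and -0.17 (adjusted p = 0.206 and 0.164). With the replicate block the adjusted p by limma was 0.0265 and 0.199 for Cdh1 and 0.0531 and 0.0391 for Dnajc2.

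**Figure D5:**
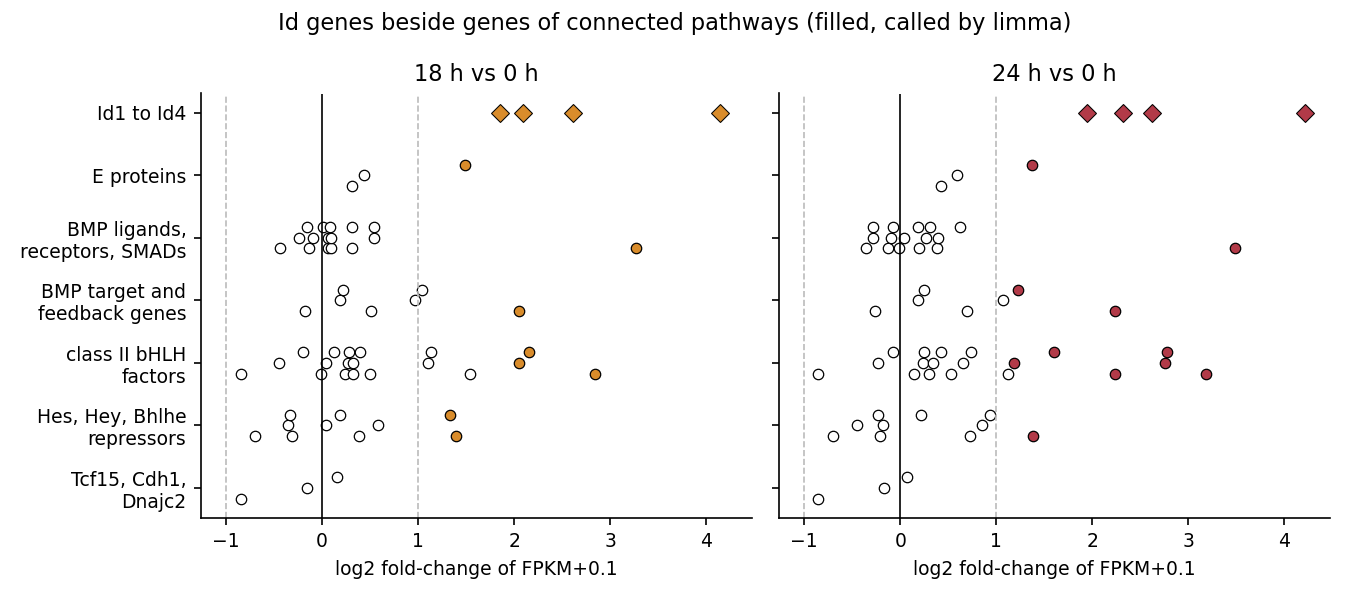
The log2 fold-change of FPKM+0.1 at 18 h and 24 h compared with 0 h for the 4 Id genes (diamonds) and for the tested genes of 6 lists (circles), filled where called by limma, with dashed lines at -1 and 1. The Id genes lie between 1.86 and 4.21, while most circles lie between the dashed lines.

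Markers of other cell types were read in the same libraries. Of the 6 trophectoderm markers, 5 were tested and 1, Cdx2, was called up by limma at both times, while edgeR and DESeq2 also called Tfap2c at 24 h. By limma 3 of the 5 were higher at an unadjusted p under 0.05 at each time. Their summed FPKM was 162 to 187 at 0 h and 266 to 342 after dox, most of it from Krt18, with log2 fold-changes of 0.83 and 0.76 (adjusted p = 0.00402 and 0.00453 by limma). Of the 6 mesoderm markers, 4 were tested and 1, Hand1, was called up, with sums of 2.78 to 3.63 at 0 h and 9.61 to 13.5 after dox. The higher sums come from Hand1, at 1.22, 9.20 and 11.6 FPKM, since the other 3 had log2 fold-changes below 0 at both times, down to -0.54 and -0.90 for T (adjusted p = 0.491 and 0.217 by limma, 0.0496 and 0.00713 with the replicate block). Of the 6, 1 marker was at 0 in all libraries of each time point. The 7 primitive endoderm markers summed to 4.53 to 5.43 FPKM untreated, 4.17 to 4.91 at 18 h and 5.24 to 6.14 at 24 h, and 0 were called by limma, edgeR or DESeq2. The 6 fibroblast markers summed to 7.58 to 15.6 FPKM at 0 h and 7.55 to 12.7 after dox, with 1 called up, Pdgfrb at 24 h. The 6 endothelial markers summed to 11.9 to 18.3 at 0 h and 10.3 to 14.7 after dox, and 0 were called by limma while edgeR and DESeq2 each called 1 down at 24 h. The part that cells of other types have in the Id values was not tested.

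The tested genes next to the Id genes on their chromosomes were also read. The nearest 2 on each side of each member were taken, which gave 16 genes. Of these, 12 lie 6387 to 221621 bases from the member, while Rnf144a and Cmpk2 beside Id2 and Rnf144b and Dek beside Id4 lie 1013237 to 1372064 bases away. Of the 16, 1 was called at 24 h and 0 at 18 h, also by edgeR and DESeq2, and 6 and 5 had an unadjusted p under 0.05, as did 28.2% and 25.4% of all genes tested. That gene was E2f2, a cell cycle transcription factor that lies 26639 bases from Id3, with mean FPKM of 1.50 untreated, 2.86 at 18 h and 3.15 at 24 h, and log2 fold-changes of 0.88 and 1.03 (adjusted p = 0.00397 and 0.00147 by limma). The other 3 neighbours of Id3 did not reach the minimum fold-change. Asap3, beyond E2f2, had log2 fold-changes of 0.44 and 0.27 (adjusted p = 0.0412 and 0.142 by limma). On the other side, Rpl11, a ribosomal protein gene, had -0.05 at both times (adjusted p = 0.766 and 0.765) and Eloa, a transcription elongation factor gene, had 0.46 and 0.35 (adjusted p = 0.00524 and 0.0117). The 12 neighbours of Id1, Id2 and Id4 had log2 fold-changes between -0.28 and 0.55 at both times.

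The genes whose log2(FPKM+0.1) was most like that of each member over the 9 libraries were found by Pearson's r among 11889 other genes whose mean FPKM reached 1. The 9 points fall into the 0 h and the dox libraries, so r describes this split and no p is given. Among themselves the members had r of 0.968 (Id3 with Id4) to 0.996 (Id1 with Id2). Most like Id1 were Snai1, a repressor active in epithelial-mesenchymal transition (r = 0.995), and Lfng, a glycosyltransferase that modifies Notch (0.993), followed by Plcxd1, Fam19a4 and Cntn2. Most like Id2 were Cntn2, an axonal adhesion protein (0.994), Ngfr, a neurotrophin receptor (0.993), and Hand1 (0.993), followed by Tns1 and Fam19a4. Most like Id3 were Frmd6, a FERM-domain protein (0.995), Lfng (0.994) and Lbh (0.994), followed by Plcxd1 and Vav2. Most like Id4 were Mppe1 (0.994), Tns1 (0.989) and Zfp644 (0.985), followed by the Notch ligand Dll1 and Hand1. Of these genes, Vav2, Mppe1 and Zfp644 did not reach the minimum fold-change at either time, with log2 fold-changes of 0.62, 0.58 and 0.31 at 18 h, and the others were called up at both times.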

How the data were processed

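RNA was measured in 9 libraries grouped by the labels' titles into 0 h, 18 h and 24 h of dox, 3 each. Per the paper's methods and the submitters' processing notes (cutadapt 1.9, edgeR 3.16.5), the authors made stranded mRNA libraries, read them on a HiSeq4000 and aligned reads to GRCm38 with STAR. The counting of strand and of multiply aligned reads is not given in the sources used here. The authors deposited FPKM values for 47729 genes, 19906 of them 0 in all libraries, and a filtered table of 19210 genes with a CPM-like signal scaled to an effective library size. The log2 fold-changes, p-values and false discovery rates of the authors' own comparisons in that table were not used. Every value of the signal was a whole multiple of 1 read (100% within 0.05), so read counts were recovered from the deposited values. Depth was 22028363 to 26471569 reads per library. All replicates were kept apart, as the labels number them. They differed by more than sampling noise (chi-square over its degrees of freedom 5.79 to 17.8), a measure that covers counting error only.

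The main test was limma 3.58.1 under R 4.3.3, with lmFit and a trended eBayes, on log2(FPKM+0.1). It took all 9 libraries without a replicate block and the 17951 genes whose mean FPKM reached 0.1. The pairing by replicate number described below was therefore not used in it. A call needed a Benjamini–Hochberg adjusted p up to 0.05 and a log2 fold-change of 1 or more in size. This test was chosen because the values are not counts. The fitting code was tested on simulated data. The numbers pair the samples, since libraries of the same number deviated together (r of 0.211 to 0.548 in 9 of 9 pairs, 11893 genes) and the labels number them 1 to 3 at each time. Alternatives were pseudocounts of 1 and 0.01, quantile normalization, no filter on FPKM or a minimum mean of 1, median centring, the replicate block, a fit of only the time points compared, no intensity trend, each library left out, edgeR 4.0.16 (with and without the block) and DESeq2 1.42.0 on recovered reads, no minimum fold-change for counts of calls, and depth-scaled reads for sums and ratios.

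The genes named are the 4 Id genes, the 5 genes most like each, the nearest 2 tested genes on each side, the E proteins, and list members called against 0 h, with others of the lists named for their role. The members and lists were chosen with earlier results of these data known. Sequences were read from RefSeq promoters and GENCODE M21 transcripts of GRCm38. Python 3.11.15 and pandas 2.3.3 were used for tables.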

Additional observations from a re-analysis of the deposited data

How the results depend on the processing

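The 8 log2 fold-changes of the 4 Id genes against 0 h kept their direction and their call under all 21 alternatives each, single libraries left out included (168 of 168 values). Over these alternatives other than libraries left out they ranged from 2.56 to 2.68 for Id1, 1.81 to 1.92 for Id2, 4.06 to 4.18 for Id3 and 1.46 to 2.19 for Id4 at 18 h. At 24 h they ranged from 2.54 to 2.71, 1.87 to 2.04, 4.12 to 4.29 and 1.65 to 2.42. The lowest values of Id4 came with a pseudocount of 1. The highest adjusted p of any alternative was 0.0168, for Id4 at 18 h. With one library left out the folds at 18 h ranged from 2.39 to 2.86 for Id1, 1.64 to 2.05 for Id2, 4.03 to 4.37 for Id3 and 1.79 to 2.25 for Id4, and at 24 h from 2.39 to 2.87, 1.73 to 2.14, 4.09 to 4.43 and 2.02 to 2.47.

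Between 24 h and 18 h no Id gene was called under any alternative. The sign of Id1 turned with median centring (-0.036), edgeR (-0.00017) and DESeq2 (-0.0034), and ranged from -0.062 to 0.065 with one library left out, negative without 18 h replicate 2 and without 24 h replicate 3. The sign of Id3 turned only without 24 h replicate 3, to -0.010, over a range of -0.010 to 0.12.

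The counts of all genes called moved more. At 18 h the 239 up and 130 down became 66 and 54 with a pseudocount of 1, 125 and 85 at a mean FPKM of at least 1, 360 up with edgeR, 471 and 289 with edgeR and the replicate block, 75 down with only the time points compared, and 766 and 667 with no minimum fold-change. The replicate block in limma gave 199 down at 18 h, and it changed no call of an Id gene and, of the list members, only those of Msx1. At 24 h the 371 up and 150 down became 84 and 67 with a pseudocount of 1, 166 and 99 at a minimum mean FPKM of 1, 615 and 314 with edgeR and the replicate block, and 1171 and 917 with no minimum fold-change. Between 24 h and 18 h the 3 up and 1 down became 0 and 0 with a pseudocount of 1, at that minimum mean FPKM and with edgeR, 1 and 0 with a pseudocount of 0.01, 0 and 2 with DESeq2, 7 and 3 with edgeR and the replicate block, and 2 down without the filter or the intensity trend. With one library left out the counts ranged at 18 h from 158 (without 18 h replicate 3) to 247 up and from 66 to 181 down, the latter 66, 69 and 66 without 0 h replicate 1, 18 h replicate 2 and 18 h replicate 3. At 24 h they ranged from 238 (without 24 h replicate 3) to 355 up and from 79 to 189 down, with 79 without 0 h replicate 1, 82 without 24 h replicate 2 and 95 without 24 h replicate 3. Between 24 h and 18 h they ranged from 0 to 6 up and from 0 to 5 down. Fewer genes or libraries enter the stricter filter and the smaller fits. Apart from that the cause was not tested.

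In recovered reads scaled to depth the summed Id expression was 876 at 18 h and 919 at 24 h, and the Id to E protein ratio was 0.465, 1.53 and 1.64 in time order. This is another unit, in which long genes weigh more. With one library left out the summed FPKM was 75.4 to 102 at 0 h, 590.3 to 610.8 at 18 h and 597 to 637 at 24 h. The depth limits Id4 most, with 22 to 49 reads per library at 0 h.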
